A study of Triticum aestivum with 12 samples.

Results

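The genes described here are the 150 most abundant flag leaf transcripts of bread wheat that were nearly silent in the developing grain. They were chosen by measured values: of 107892 genes in the count table, 47555 had at most 1 CPM (counts relative to the total of their library) in each of the 6 grain libraries, and the 150 with the highest leaf level were taken, the leaf level being the mean of the E82 leaf mean and the WT leaf mean. Leaf-restricted therefore refers to these grain samples alone, and no other tissue was measured. All 150 passed the filter on low counts and entered the test between the lines.

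The study compared E82, an RNAi wheat line whose gliadin genes are silenced by hairpin constructs under promoters of the endosperm, with its wild type BW208 (WT), from which it was derived by transformation and selfing. Grain and flag leaf were collected during grain filling. The groups were flag leaf of E82, flag leaf of WT, grain of E82 and grain of WT, with 3 libraries each from different plants, 12 in all. E82 is a single line, so a difference between the lines cannot be told apart from any other difference that this line carries.

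In the filling stage the flag leaf is the main source of sucrose for the ear. SWEET proteins are sugar exporters that let sucrose out of cells down its gradient. SWEET13 proteins are known from maize to serve phloem loading. There, sucrose leaves leaf cells before the H+-coupled transporter SUT1 takes it into the phloem. GLK1 belongs to the Golden2-like factors, which in Arabidopsis and maize promote chloroplast development, and NF-YC4 is a subunit of the CCAAT-binding NF-Y complex.

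The files pair gene IDs with no names, and none of the 150 IDs was found in the reference gene table, which is of another assembly. Names were taken from the study's own gene tables and cover 9 of the 150: 6 TaSWEET13 genes, 1 serine-type protease, NF-YC4 and GLK1. For transcription factors without annotation the study gave names of Arabidopsis orthologs, so NF-YC4 and GLK1 may be such names. The other 141 are given by ID and the chromosome that the ID states, with no function. The study's primer pair for TaSWEET13 was designed to amplify TaSWEET13f-6D and TaSWEET13g-6B, the most and the third most abundant of the 150, and it is shown since these genes and their neighbours carry much of the counts of the 150 in WT leaf. Both primers are written 5′ to 3′.
TaSWEET13 qPCR primer 1: cgagtcatcaagaccaagagtg
TaSWEET13 qPCR primer 2: aggccgtagaggaaccagac

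Leaf libraries held 55529571 to 59921210 counts in E82 and 27173003 to 41002932 counts in WT. By the study's alignment summary, every WT leaf library had a lower share of its read pairs aligned than every E82 leaf library. The totals thus reflect sequencing and alignment together. Genes with any count numbered 55997 to 59916 in E82 leaf and 31623 to 45720 in WT leaf, with the lowest number in WT replicate 3, the shallowest library. As a check of the tissue, the 15 grain marker genes fixed for it summed to 0.284 to 1.72 CPM in E82 leaf and to 0 to 26.5 CPM in WT leaf, with 11 to 12 and 14 to 15 of them at 0, against sums of 7568 to 8111 CPM in E82 grain and 10630 to 12620 CPM in WT grain. The part of library depth, of the share of reads aligned and of the number of detected genes in the differences given here was not tested. In these bulk samples, fewer cells of a type and less RNA per cell cannot be told apart.

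The TaSWEET13 genes stood at the head of the list, and each was lower in every E82 leaf library than in every WT leaf library. TaSWEET13f-6D (TraesCS6D02G367400) had 350, 973 and 635 CPM in E82 leaf, against 4216, 4801 and 7901 CPM in WT leaf, and no count in any grain library. TaSWEET13g-6B (TraesCS6B02G421800) had 308, 838 and 491 CPM in E82 leaf, against 4245, 3629 and 5076 CPM in WT leaf. In both genes E82 replicate 2 was the highest E82 library and WT replicate 3 the highest WT library. The log2 fold change, E82 over WT, was -2.85 ± 0.44 (SE) for TaSWEET13f-6D and -2.73 ± 0.38 (SE) for TaSWEET13g-6B when fitted by quasi-likelihood in edgeR. After Benjamini-Hochberg adjustment over all genes tested, the adjusted p was 0.0739 for the 6D gene and 0.0693 for the 6B gene in that edgeR test, so neither passed the threshold of 0.05. The study's own edgeR analysis called both genes lower in E82 leaf. It reported the same direction by qPCR with the primer pair shown above, which amplifies both genes together.

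The remaining named TaSWEET13 genes showed the same separation of the lines at lower levels. TaSWEET13i-6B (TraesCS6B02G421600) had 189, 455 and 273 CPM in E82 leaf and 1513, 1660 and 2446 CPM in WT leaf. TaSWEET13h-6B (TraesCS6B02G421500) had 101.4, 282 and 187 CPM in E82 leaf and 1357, 1233 and 2568 CPM in WT leaf, and TaSWEET13b-6D (TraesCS6D02G367300) had 176, 400 and 319 CPM in E82 leaf and 1197, 1241 and 2091 CPM in WT leaf. These genes ranked 5, 6 and 7 of the 150. TaSWEET13d-6B (TraesCS6B02G421700), at rank 82, was far lower, with 10.9, 25.6 and 16.0 CPM in E82 leaf and 89.7, 131 and 147 CPM in WT leaf. In all of these genes E82 replicate 1 was the lowest E82 library and E82 replicate 2 the highest. Their log2 fold changes were -2.35 ± 0.35, -2.91 ± 0.44, -2.07 ± 0.35 and -2.55 ± 0.34 (SE) in the order given, with edgeR adjusted p of 0.0739, 0.0739, 0.0864 and 0.0618.

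**Figure D1:**
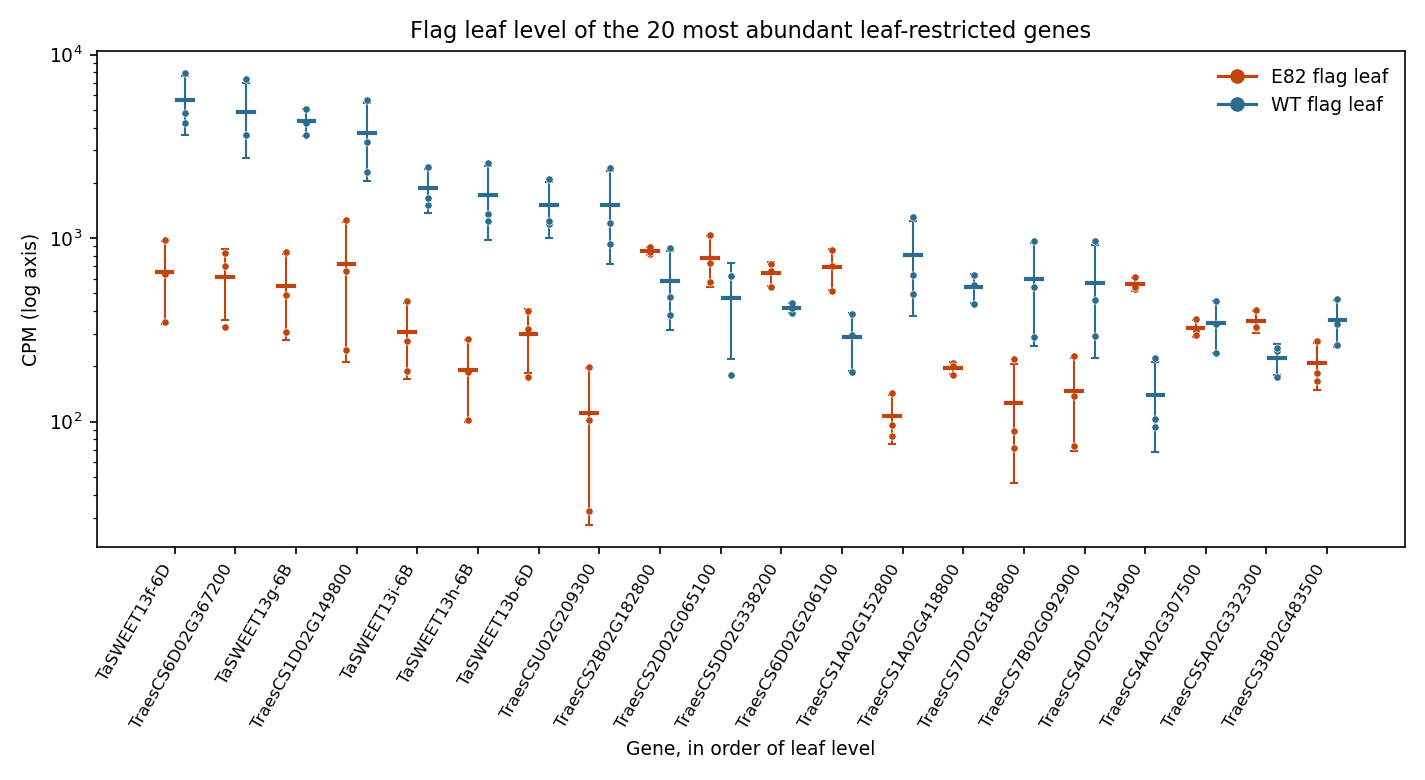
CPM on a log axis for the 20 most abundant leaf-restricted genes, in order of leaf level, with E82 flag leaf left of WT flag leaf; points are libraries, short bars means and whiskers SD (n = 3 each, cut short at the lower end where they would reach 0). The 8 genes at the left, TaSWEET13f-6D to TraesCSU02G209300, have no E82 library as high as any WT library.

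By transcript length, too, the TaSWEET13 genes were among the most abundant. TaSWEET13f-6D averaged 467 ± 217.4 TPM (a level scaled by transcript length) in E82 leaf and 4082 ± 1406 TPM in WT leaf (SD, n = 3 each). It was the highest of the 150 in WT leaf and by the mean of the lines, but not in E82 leaf. TaSWEET13g-6B averaged 405 ± 193.6 TPM in E82 leaf and 3246 ± 531 TPM in WT leaf, and TaSWEET13d-6B 12.3 ± 5.08 TPM in E82 leaf and 87.1 ± 20.5 TPM in WT leaf. In WT the mean of TaSWEET13d-6B thus stood well under those of its neighbours on 6B, outside their spread. Neighbouring genes of 1 family can share reads, which the pseudoaligner divides among them by estimation, so the split among the TaSWEET13 genes is uncertain.

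The 6 TaSWEET13 genes and 1 unnamed neighbour form a pair of runs of successive IDs, 4 genes on 6B and 3 on 6D. The unnamed gene, TraesCS6D02G367200 at rank 2, had 327, 825 and 700 CPM in E82 leaf and 3645, 3629 and 7371 CPM in WT leaf, the same order of lines as beside it, with a log2 fold change of -2.71 ± 0.45 (SE) and an edgeR adjusted p of 0.0822. Summed, which does not depend on the split within a run, the 7 genes held 0.146, 0.38 and 0.262% of all leaf counts in E82 and 1.63, 1.63 and 2.76% in WT. The mean share was 0.263 ± 0.117% in E82 leaf and 2.01 ± 0.653% in WT leaf (SD, n = 3 each). The lines did not overlap, and the exact two-sided permutation test gave p = 0.1, the smallest that 3 against 3 libraries allow. Without overlap it always gives this value, so it adds nothing to the separation seen. The genes were also ranked by their levels in these same libraries. A corresponding run on 6A, described next, is not in the sum, and how reads were divided between the runs was not tested.

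The corresponding run on 6A shows how the grain limit decided membership. TaSWEET13e-6A (TraesCS6A02G382600) was left out because grain libraries reached 10.5 CPM, and it had 476, 1325 and 850 CPM in E82 leaf and 6252, 6277 and 10480 CPM in WT leaf. Its neighbour TraesCS6A02G382400 had 656, 1327 and 1296 CPM in E82 leaf and 6223, 5538 and 11090 CPM in WT leaf, and was left out by a single grain library, WT grain replicate 3, at 1.01 CPM, with 0 in the other grain libraries. Between them lies TraesCS6A02G382500, a member at rank 131, with 12.0, 29.5 and 18.4 CPM in E82 leaf and 69.9, 69.4 and 97.4 CPM in WT leaf. Both genes left out were more abundant in WT leaf than any of the 150, in CPM.

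Together the 150 genes took 1.79, 2.03 and 1.78% of E82 leaf counts and 3.60, 3.63 and 5.38% of WT leaf counts. The TaSWEET13 runs made up 8.15, 18.7 and 14.7% of the counts of the 150 in E82 leaf and 45.2, 45.0 and 51.3% in WT leaf. Without these 7 genes, the remaining 143 held 1.65, 1.65 and 1.52% of E82 leaf counts, against 1.97, 1.998 and 2.62% of WT leaf counts. The mean was 1.60 ± 0.0754% in E82 leaf and 2.20 ± 0.368% in WT leaf, and by library totals the lines did not overlap (exact two-sided permutation test, p = 0.1, the smallest possible). This rested on the scaling: divided by the TMM factors of edgeR, the shares of the 143 were 1.90, 1.70 and 1.70% in E82 leaf and 1.82, 1.87 and 2.29% in WT leaf, which overlap (exact permutation test, p = 0.3). The shares of the TaSWEET13 runs did not overlap on that scale either, with 0.169 to 0.392% in E82 leaf and 1.5 to 2.41% in WT leaf. In the 6 grain libraries the 150 genes together held 0.00158 to 0.00212% of counts in E82 and 0.00146 to 0.00179% in WT, which the choice of genes fixes.

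**Figure D2:**
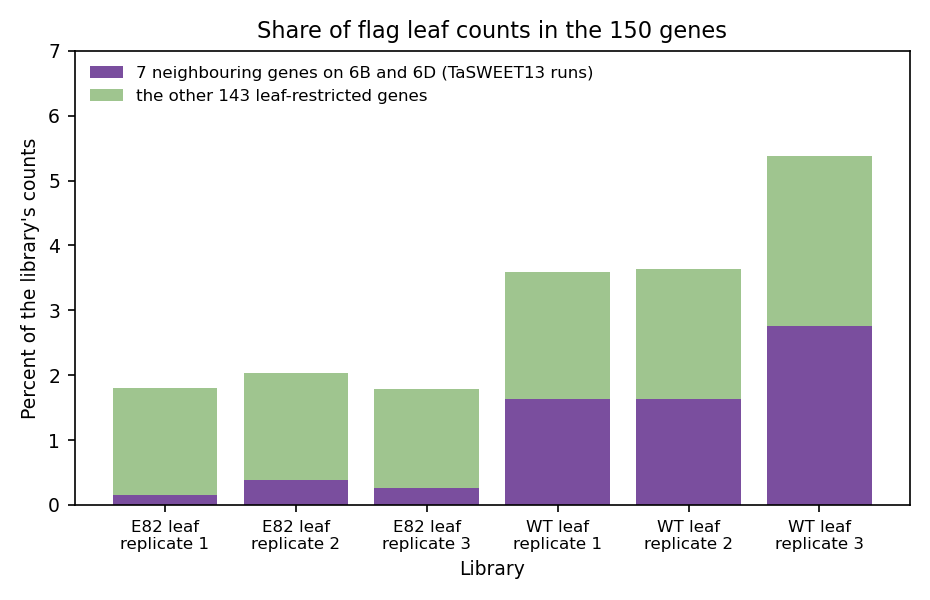
Percent of all counts of each flag leaf library that fell in the 150 leaf-restricted genes, E82 libraries left of WT libraries, divided into the 7 genes of the TaSWEET13 runs on 6B and 6D and the other 143 genes. The 7 genes hold at most 0.38% in an E82 library and at least 1.63% in a WT library.

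Several unnamed genes reached the level of the TaSWEET13 genes. TraesCS1D02G149800 on 1D, at rank 4, had 657, 1251 and 245 CPM in E82 leaf, against 2287, 3336 and 5624 CPM in WT leaf. Per length it was the second most abundant by the mean of the lines, with 695 ± 479 TPM in E82 leaf and 3678 ± 1649 TPM in WT leaf (SD, n = 3 each), a mean within the spread of that of TaSWEET13f-6D. Its log2 fold change was -2.12 ± 0.61 (SE), with an edgeR adjusted p of 0.0951. TraesCSU02G209300, on no placed chromosome and at rank 8, had 102, 199 and 32.5 CPM in E82 leaf and 932, 1201 and 2419 CPM in WT leaf. Its difference, -3.51 ± 0.69 on the log2 scale (SE, edgeR adjusted p 0.0864), was the lowest of the 150, and its E82 libraries were spread more widely than those of the TaSWEET13 genes.

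The order of the genes differed between the lines. In E82 leaf the highest member by CPM was TraesCS2B02G182800, with 817, 843 and 899 CPM in E82 leaf and 885, 480 and 379 CPM in WT leaf, and it stood in place 11 in WT. The next, TraesCS2D02G065100, had 1044, 727 and 574 CPM in E82 leaf and 180, 623 and 618 CPM in WT leaf, where it stood in place 14. Both overlapped between the lines, with log2 fold changes of 0.82 ± 0.35 and 1.01 ± 0.50 (SE) and edgeR adjusted p of 0.265 and 0.35. TaSWEET13f-6D stood in place 5 in E82 leaf, against place 1 in WT leaf. Per length, TraesCS2D02G065100 was the highest in E82 leaf of the 20 with the largest mean TPM, with 1082 ± 324 TPM in E82 leaf and 655 ± 351 TPM in WT leaf. Ranking by E82 leaf alone would keep 123 of the 150 and ranking by WT leaf alone 129, so some genes owe their place mainly to 1 line.

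In the quasi-likelihood test of edgeR, 3 of the 150 passed an adjusted p of 0.05 between the lines, 2 lower and 1 higher in E82. Over all 53874 genes tested the share called was 0.163%, with 0.143% lower and 0.0204% higher. Among the 3699 tested genes with at least the leaf level of the lowest of the 150 it was 0.892%, the members included. At counts this small, 2% of the 150 says little about them as a group. All 3 are unnamed. Over all genes tested, the quasi-likelihood test called 88, the exact test of edgeR 5869 and its likelihood ratio test 6783. The study used edgeR at the same threshold, without naming the test. It called far more leaf genes than 88, most of them higher in E82.

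TraesCS3D02G392500 on 3D fell in E82. It had 12.6, 8.36 and 10.7 CPM in E82 leaf, against 108, 84.5 and 99.2 CPM in WT leaf, a log2 fold change of -2.91 ± 0.26 (SE) with an edgeR adjusted p of 0.0234. Libraries of a line lay close together, and the lines were far apart. TraesCS7D02G445300 on 7D also fell, with 7.18, 10.6 and 11.4 CPM in E82 leaf, against 56.3, 97.7 and 108 CPM in WT leaf, a log2 fold change of -2.89 ± 0.32 (SE) and an edgeR adjusted p of 0.0459. TraesCS6A02G233100 on 6A rose, with 153, 165 and 148 CPM in E82 leaf, against 58.6, 73.4 and 63.7 CPM in WT leaf, a log2 fold change of 1.53 ± 0.18 (SE) and an edgeR adjusted p of 0.0466. Its coefficient of variation (SD over mean) was 0.0562 in E82 leaf and 0.115 in WT leaf, and the larger of these was the smallest such value among the 150. All 3 remained called without WT leaf replicate 1, and each lost its call without any other of the leaf libraries, with edgeR adjusted p of 0.0527 to 0.247.

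The largest positive difference belonged to TraesCS4D02G134900 on 4D, at rank 17. It had 529, 543 and 614 CPM in E82 leaf, against 103, 93.5 and 222 CPM in WT leaf, with a log2 fold change of 2.31 ± 0.35 (SE) and an edgeR adjusted p of 0.0739. The E82 libraries agreed closely, whereas WT replicate 3 had more than the other WT libraries.

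Among the named genes outside the TaSWEET13 family, the serine-type protease TraesCS6A02G161600, an enzyme class that cleaves proteins through an active serine, had 43.8, 53.9 and 54.9 CPM in E82 leaf and 118, 110 and 253 CPM in WT leaf. No library of E82 reached the lowest of WT, and WT replicate 3 stood above the other WT libraries. Its log2 fold change was -1.36 ± 0.33 (SE, edgeR adjusted p 0.0864), and no grain library had a count. The study's own edgeR analysis called this gene lower in E82 leaf. GLK1 (TraesCS7D02G347500) had 64.4, 62.1 and 95.2 CPM in E82 leaf and 26.4, 51.4 and 35.6 CPM in WT leaf, higher in every E82 library, with a log2 fold change of 1.25 ± 0.33 (SE, edgeR adjusted p 0.0864). NF-YC4 (TraesCS4D02G223400) overlapped between the lines, with 136, 123 and 159 CPM in E82 leaf and 114, 159 and 93.1 CPM in WT leaf, a log2 fold change of 0.46 ± 0.27 (SE) and an edgeR adjusted p of 0.465. NF-YC4 was also nearly excluded by the grain limit, with 0.977 CPM in E82 grain replicate 3 and 0 in the other grain libraries. GLK1 had 0.714 CPM in E82 grain replicate 1 and 0 in the other grain libraries. The study lists both among its candidate transcription factors, which it called changed in E82 grain.

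Taking the 150 together, 46 had an unadjusted p under 0.05 with a higher and 36 with a lower level in E82 leaf, 54.7% of them, against 19.3% of all genes tested and 50.8% of the genes at the same leaf level. The median log2 fold change was 0.41 for the 150, 0.21 over all genes tested and 0.42 over the genes at the same leaf level, so the 150 lay close to equally abundant genes in both respects. The lower quartile of the log2 fold change was -1.01 for the 150, -0.61 over all genes tested and -0.24 over the genes at the same level, while the lowest single value was -3.51 in the 150 and lay below it in both of the wider sets. The share lower in E82 with no overlap between the lines was 27.3% (41 genes), against 10.6% of all genes tested and 21.6% of those at the same level. The share higher with no overlap was 20% (30 genes), against 18.5% and 27.6%. In the other 79 genes the lines overlapped.

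These directions depended on the scaling. CPM rests on library totals, and with the TMM factors of edgeR, which were 0.866 to 0.969 in E82 leaf and 1.07 to 1.15 in WT leaf, 34 genes were lower with no overlap (22.7%, against 7.43% of all genes and 15.2% of those at the same level) and 55 were higher (36.7%, against 23.8% and 41.0%). The lower genes thus outnumber the higher ones by library totals, and the reverse holds with TMM. The median of all genes moved between -0.06 with library totals and 0.21 with TMM on the log2 scale. The differences of the TaSWEET13 genes are many times that shift.

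**Figure D3:**
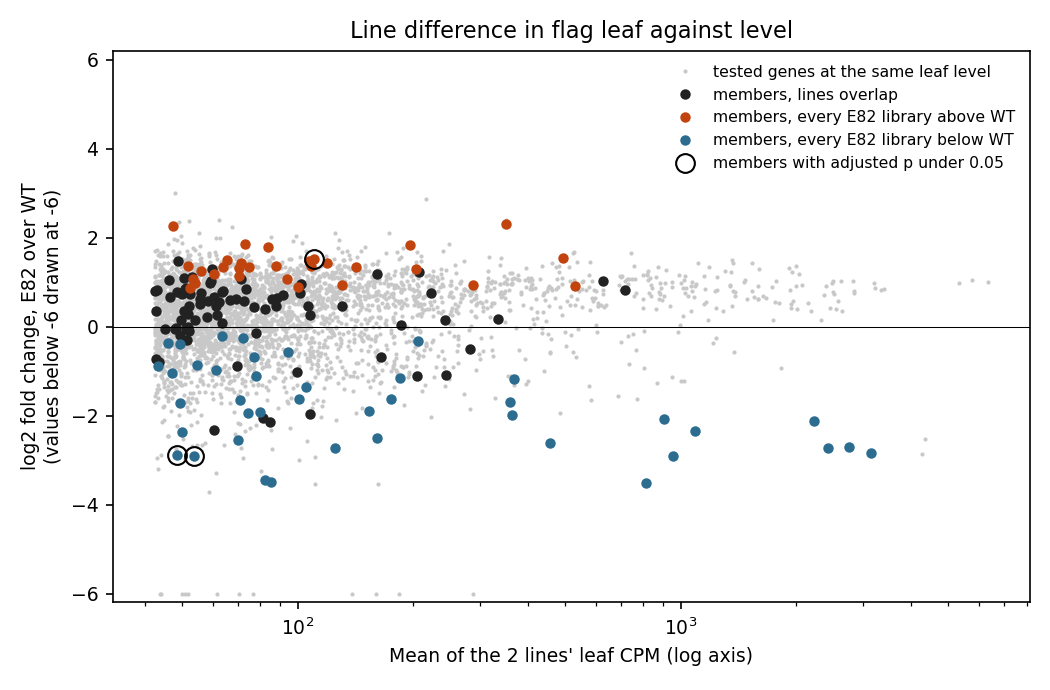
The log2 fold change between E82 and WT flag leaf (quasi-likelihood fit, TMM) against the mean of the lines' leaf CPM on a log axis, for the 150 leaf-restricted genes (coloured by whether the lines overlap in CPM) and for the tested genes at the same leaf level (grey). Of the 6 TaSWEET13 genes, between -2.07 and -2.91, 5 lie at the right of the plot and TaSWEET13d-6B lies near the middle of the 150 in level, and the 3 circled genes have an adjusted p under 0.05.

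The number of calls also depended on the test. In the likelihood ratio test of edgeR, 52 of the 150 passed an adjusted p of 0.05 (34.7%; 29 lower and 23 higher in E82), against 12.6% of all genes and 27.3% of those at the same leaf level, and DESeq2 called 57 (34 lower and 23 higher), against 10.6% of all genes. All 52 were among the 57. All 6 TaSWEET13 genes, the protease and GLK1 were among the 52, with adjusted p in the likelihood ratio test of 6.46e-08 for TaSWEET13f-6D, 0.0077 for the protease and 0.0192 for GLK1. Leaving WT leaf replicate 1 out of the quasi-likelihood test gave 42 calls, against 16.8% of all genes then tested. Of the 42, 35 were among the 52. Adjusted p values in this test were often tied, many of the 150 sharing 0.0864 with all leaf libraries and 0.0426 without that replicate. With all leaf libraries, 51 of the 150 had an adjusted p under 0.1. An unadjusted p under 0.05 was found for 82 with all leaf libraries and for 79 without that replicate. Leaving out any other leaf library gave 0 or 1 in the quasi-likelihood test of edgeR. Where it gave 0, 65 to 77 of the 150 had an unadjusted p under 0.05, against 12.2 to 23.8% of all genes then tested. The share at the same leaf level was not taken for DESeq2 or for fits without a library. With every leaf library, the quasi-likelihood test gave an unadjusted p under 0.05 in 50.8% of genes at that level and 54.7% of the 150.

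**Figure D4:**
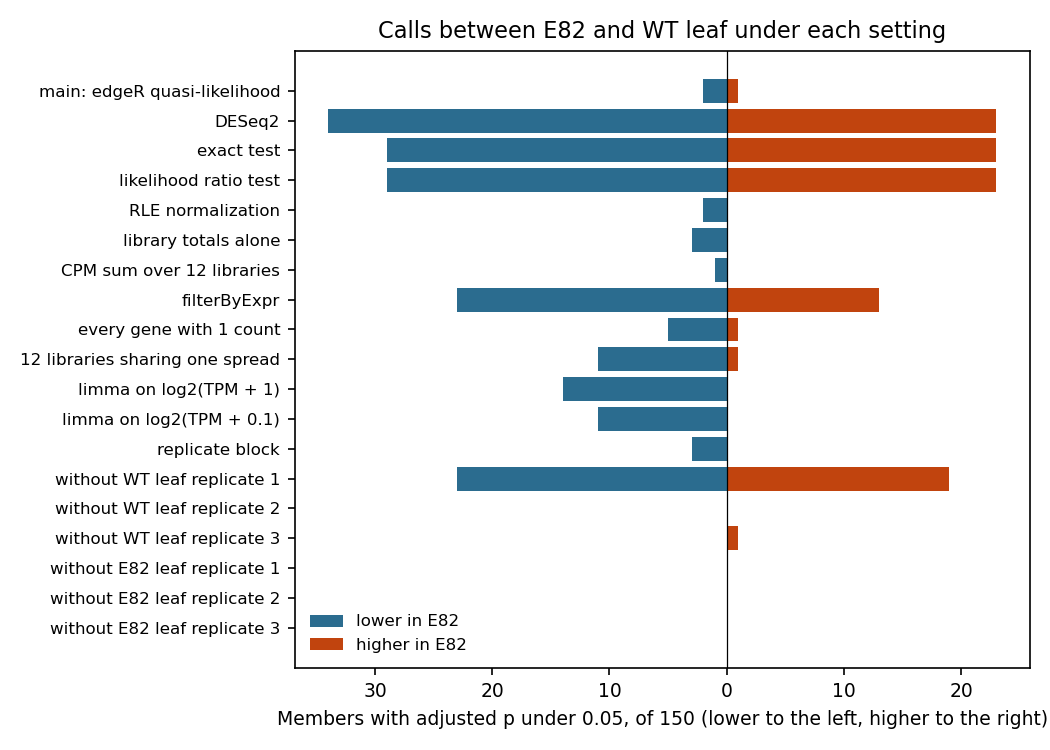
Number of the 150 genes with an adjusted p under 0.05 between E82 and WT leaf under each setting, drawn leftwards for genes lower in E82 and rightwards for genes higher. The quasi-likelihood test calls 3, the likelihood ratio test 52 and DESeq2 57, and leaving out single libraries gives 0 to 42.

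The highest library of a line was not evenly spread over the replicates. Among the 41 genes lower in E82 with no overlap, E82 replicate 2 was the highest E82 library in 28 and WT replicate 3 the highest WT library in 32. Among the 800 genes at the same leaf level that were lower with no overlap, these libraries were the highest of their line in 68.5% and 48.8%. Among the 30 higher genes WT replicate 3 was the highest WT library in 11. WT replicate 3 was also the library with the fewest counts and detected genes and the one with the largest sum of grain markers, and the part of these in the pattern was not tested.

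The spread within the lines was wide in many of the 150. The median coefficient of variation was 0.212 in E82 leaf and 0.358 in WT leaf for the 150, against 0.149 in E82 leaf and 0.255 in WT leaf for the 3699 genes at the same level, and it was larger in WT than in E82 in 109 of the 150. The most variable was TraesCS3A02G233600 on 3A, with 141, 203 and 5.37 CPM in E82 leaf and 47.0, 795 and 41.0 CPM in WT leaf. Its log2 fold change of -1.12 ± 1.48 (SE, edgeR adjusted p 0.861) rests on WT replicate 2 alone. TraesCS6A02G132200 on 6A had 25.1, 19.9 and 6.35 CPM in E82 leaf and 253, 24.9 and 33.8 CPM in WT leaf, and TraesCS7D02G370400 on 7D had 45.8, 20.9 and 18.6 CPM in E82 leaf and 131, 18.6 and 21.8 CPM in WT leaf. In both, WT replicate 1 stood alone. TraesCS1B02G451200 on 1B was at 0 in WT replicate 2 alone, with 51.2, 64.8 and 86.0 CPM in E82 leaf and 23.7, 0 and 67.4 CPM in WT leaf. TraesCS7D02G375700 on 7D was low in E82 replicate 3, with 28.0, 83.9 and 2.15 CPM in E82 leaf and 202, 48.8 and 281 CPM in WT leaf. The steadiest in WT was TraesCS3B02G014800 on 3B, with 193, 299 and 206 CPM in E82 leaf and 258, 250.1 and 250 CPM in WT leaf.

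In grain, 65 of the 150 had no count in any of the 6 libraries, and 66 had at most 3 counts in each. A count of 0 allows up to 3 counts, equal to 0.0669 to 0.0946 CPM in E82 grain and 0.0593 to 0.0628 CPM in WT grain, for counting error only. The highest grain library was above 0.5 CPM in 56 genes. The limit cut through a continuous range: the members nearest to it reached 0.982 CPM (TraesCS7A02G189500) and 0.977 CPM (NF-YC4) in grain, and the genes of sufficient leaf level nearest above it 1.003 and 1.006 CPM. At the other edge, the last members had leaf levels of 42.8 and 42.4 CPM and the first genes outside 42.06 and 42.05 CPM. Of the 3699 genes with at least this leaf level, 3549 exceeded the grain limit. Among all genes by leaf level the 150 stood between place 10 and place 3699, with a median of 1900.

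**Figure D5:**
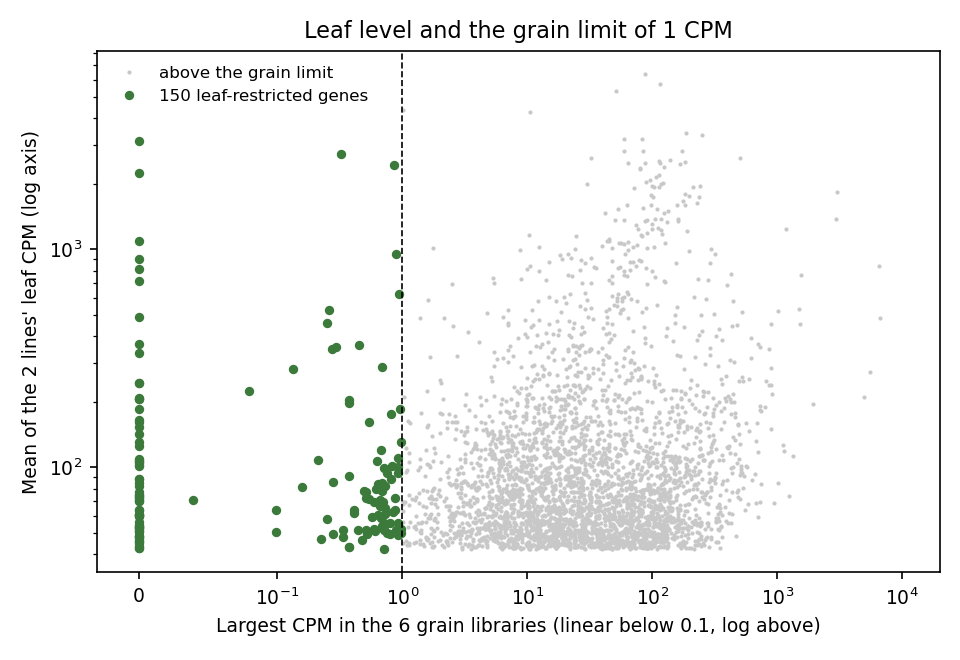
Mean of the lines' leaf CPM on a log axis against the largest CPM in the 6 grain libraries (linear below 0.1, log above) for the 150 leaf-restricted genes and, in grey, the 3549 genes of at least the same leaf level above the grain limit of 1 CPM, drawn as a dashed line. Genes at the left edge, 65 in all, had no grain count, and there is no gap at the limit.

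By their IDs, 39 of the 150 lie on the A, 47 on the B and 60 on the D subgenome of this hexaploid, and 4 are unplaced. The D share was 40.0%, against 31.7% of all genes, 29.4% of the genes under the grain limit and 35.7% of the genes at the same leaf level. Chromosome group 6 held 27 genes (18%, against 11.8% of all genes), of which the TaSWEET13 runs are 7, and group 5 held 13 (8.67%, against 15.4%). The fullest chromosomes were 7D with 12 genes and 2D, 3D and 6D with 11 each, and 3A had 2. There were 7 runs of successive IDs, holding 17 genes. Of these, 5 were pairs, on 1B, 1D, 6D and, with 2 pairs, 2D. The 1D pair joined TraesCS1D02G149800 to TraesCS1D02G149700, which had 25.02, 34.3 and 19.1 CPM in E82 leaf and 78.5, 72.7 and 216.9 CPM in WT leaf, so that both genes of that pair were lower in every E82 library. The same held for both genes of the 1B pair and of a pair on 2D, but not for the other 2D pair or the 6D pair.

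Most of the 150 had a single annotated transcript (120 genes, 80.0%), and in 12 of the 30 with several the leading transcript held over 90% of the gene's TPM. The leading transcripts were 216 to 5274 bases long, with a median of 1344. The shortest belonged to TraesCS1D02G426500 on 1D, whose 42.1 ± 7.34 CPM in E82 leaf and 160 ± 42.3 CPM in WT leaf (SD, n = 3 each) became 727 ± 153 TPM in E82 leaf and 2567 ± 605 TPM in WT leaf, the fifth highest per length by the mean of the lines. Ranking by TPM in place of CPM would keep 98 of the 150.

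Of the sugar transporters in the study's gene tables, the leaf route list held 7 TaSWEET13 and 3 SUT1 genes, all tested. None passed the quasi-likelihood test of edgeR in either direction (all 10 had an unadjusted p under 0.05), whereas all 10 were lower in E82 in the likelihood ratio test, with a median log2 fold change of -2.45. The SUT1 genes, with a median of -1.62, were all above the grain limit and so are no members, as were all 7 TaSWEET genes outside the TaSWEET13 group. Of the whole transporter table, 51 of 55 genes were tested and 1 was called lower by quasi-likelihood, the proline transporter TaProT2-3D, while the likelihood ratio test called 12 higher and 31 lower. Of 31 serine proteases 1 and of 30 candidate transcription factors 2 were members. The study drew these tables up from the same libraries and listed genes that its own edgeR analysis had called changed. A high share of calls among them follows from that choice, so they are no independent evidence of change or of direction.

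The genes outside the 150 whose level most resembled the sum of the 150 over the 12 libraries were TraesCS4A02G078200, TraesCS2A02G562100, TraesCS4D02G014100, TraesCS1B02G466200 and TraesCS2A02G287200, with Pearson correlations of log2(CPM + 1) of 0.998, 0.998, 0.997, 0.997 and 0.997. The points share the contrast of leaf and grain, which the choice of the 150 fixes for the sum. The 5 genes were less abundant, at 9.42 to 33.3 CPM in leaf.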

How the data were processed

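RNA of 12 libraries was analysed, and the line, tissue and replicate of each were taken from its labels. Per the labels and the study's methods, the authors ran Trimmomatic 0.36 on the reads and then kallisto 0.44.0 against the IWGSC RefSeq v1.1 transcripts, and they used edgeR 3.22.5 in R 3.6.3. The authors deposited estimated counts per gene, not normalized, and TPM per transcript for each library. Estimated counts were rounded before testing, and TPM was summed per gene.

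The 6 leaf libraries were fitted with edgeR 4.0.16 (TMM, glmQLFit and glmQLFTest, line only) in R 4.3.3 on genes with a CPM sum above 1, with Benjamini-Hochberg adjustment over all genes tested and a threshold of 0.05. Standard errors are the size of the log2 fold change divided by the square root of F. Replicates were different plants. The fit was also run on simulated data, whose outcome is not given here and lends no support to the calls. The alternatives were DESeq2 1.42.0, the exact and likelihood ratio tests of edgeR, other scalings and filters, 12 libraries sharing one spread, limma 3.58.1 on log2 TPM with a pseudocount of 1 or of 0.1, the replicate block, each library left out, and other limits and rankings of the gene choice. The added alternatives, TMM scaling for the overlap of the lines and for the summed shares, were chosen after seeing the data.

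The members and lists were chosen with earlier results of these data known. The rule for named genes took the 20 highest by leaf level, up to 8 of the largest differences in each direction without overlap between the lines, members named in the study's tables, those nearest the limits and the 5 most variable. Of unnamed genes, only the few that a description rests on are given, and TraesCS3B02G014800, TraesCS1D02G426500 and TraesCS1D02G149700 were chosen after their values were seen. Lists by gene description could not be applied, since no annotation of these IDs was used here.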

Additional observations from a re-analysis of the deposited data

How the results depend on the processing

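The number of the 150 genes called between E82 and WT leaf, 3 in the quasi-likelihood test, was 57 with DESeq2 (10.6% of all genes tested in that fit), 52 with the exact test (10.9%) and 52 with the likelihood ratio test of edgeR (12.6%). It was 36 with filterByExpr (8.09%), 6 with every gene with 1 count (0.179%), 1 with the CPM sum over 12 libraries (0.0599%), 12 with 12 libraries sharing one spread (6.23%), 14 with limma on log2(TPM + 1) (1.92%) and 11 with limma on log2(TPM + 0.1) (6.25%). Leaving out single libraries gave 0 to 42, with 42 without WT leaf replicate 1 (16.8% of all genes), 1 without WT leaf replicate 3 (0.103%) and 0 without each of the others (0.0134 to 0.0573%). The filters differ in the genes tested, and the cause of the other differences was not tested. The shares given here are of all genes tested, and equally abundant genes were not counted in most of these fits. RLE normalization gave 2 and library totals alone 3. With the replicate block, 3 were called, all lower in E82, and the replicate numbers showed no pairing, since deviations of same-numbered libraries correlated at -0.0262 to 0.0114. For the 19 genes printed with a fold change, the 18 alternative fits gave 342 results, which are not independent of each other. They left 237 on the same side of the threshold, brought 80 past it, took 24 back from it and turned 1 round. That was TraesCS3A02G233600, whose log2 fold change ranged from -1.67 to 1.67 when single libraries were left out and turned positive without WT leaf replicate 2. Of the 150 genes, 94 were kept with a grain limit of 0.5 CPM, 91 with a limit of 2 CPM and 98 when ranked by TPM. TMM-scaled CPM for the choice kept 136. With TMM-scaled CPM, 55 in place of 30 genes were higher in E82 with no overlap. TMM scaling gave mean shares in E82 leaf of 2.05% for the 150 and 1.77% without the TaSWEET13 runs. Depth limits what can be said of grain, where 0 counts do not exclude a low level.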
